A study of Mus musculus with 4 samples.

Results

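The Hox genes encode homeodomain transcription factors and lie in 4 clusters, Hoxa, Hoxb, Hoxc and Hoxd. They were read here in a ChIP-seq map from mouse Th17 cells, helper T cells that secrete IL-17. The mark mapped was H3K27ac, acetylation of histone H3 at a lysine of its tail, which is typical of promoters and enhancers in use. The members were the protein-coding genes of the GRCm38.p6 RefSeq table whose symbol is Hoxa, Hoxb, Hoxc or Hoxd with a number. They were 39 of the 21631 protein-coding genes that the table places on an autosome or the X chromosome, with 11 in Hoxa, 10 in Hoxb, 9 in Hoxc and 9 in Hoxd. Each was read with the deposited peaks that overlap it or the 10000 bp on each side by at least 1 bp. The rule names symbols and positions, not peak values.

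The cultures were started from naive CD4+ T cells (C57BL/6 strain) and kept for 72 h with anti-CD3ε (0.25 µg/mL), anti-CD28 (1 µg/mL), TGF-β (0.1 ng/mL) and IL-6 (20 ng/mL), per the treatment labels. A wider range of TGF-β stands in the growth protocol, and the names of the deposited peaks carry the tag WT_Ddx5, which the labels do not explain. Each of 2 biological replicates has an H3K27ac library and an input DNA library. The data used here are 1 list of 56285 peaks with a position and no height, score or value per library, so the values below have no replicate error, the depth is unknown, and no test between conditions exists. In a bulk culture, a mark on a few cells and a weak mark on many cannot be told apart. Of genes that mark the labelled cell type, 8 of 8 T cell and 9 of 9 Th17 markers had a peak within 10000 bp, against 66.8% of all protein-coding genes, while the B cell genes Cd79b and Ms4a1, the progenitor genes Cd34, Mecom and Meis1 and the stromal genes Col1a2, Col3a1, Pdgfra and Pdgfrb had none. Of the marker lists for other cells, 3 of 6 B cell, 3 of 6 myeloid, 4 of 7 progenitor, 3 of 7 stromal and 3 of 4 endothelial genes had a peak in that window, which is near or below the share of all genes. Some markers of other cells were strongly marked. The highest bp under peaks in that window was 30942 in the B cell list and 29555 in the endothelial list, with medians of 277 and 435 bp. The medians of the T cell and Th17 lists were 16756 and 18645 bp.

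Hox genes set the identity of body segments in the embryo, and within a cluster their order on the chromosome follows their order of use along the body axis. Low paralog numbers mark the anterior end and high numbers the posterior end. In blood, several Hoxa and Hoxb genes are active in stem and progenitor cells and are turned down as cells mature. Silent Hox clusters are the classical targets of Polycomb complexes. Polycomb repressive complex 2 methylates the same lysine that H3K27ac acetylates, and Trithorax proteins oppose it.

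The 4 clusters held 13 peaks in all. Hoxa had 7, Hoxb 3, Hoxc 2 and Hoxd 1. All 13 lay between the outer genes of their cluster and none in the outer flanks of 10000 bp. Peaks were about as frequent as elsewhere, at 2.27 per 100000 bp of the 4 windows against 2.15 over the annotated span of the chromosomes, but they were narrow. Their median width was 427 bp (range 103 to 1159 bp) against 579 bp over all peaks (quartiles 256 and 1479 bp). Peaks of at least 1000 bp were 2 of the 13, against 35.5% of all peaks. They covered 1.10% of the windows, against 2.47% of the annotated span.

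The clusters differed among themselves. Hoxa (chromosome 6) had 3850 bp under peaks in the cluster with its flanks, or 3.07% of that window, which is above the share of the annotated span. Hoxb (chr11:96194316-96368254) had 1408 bp, or 0.726%. Hoxc (chr15:102921131-103036856) had 883 bp, or 0.651%. Hoxd (chr2:74668225-74765142) had 149 bp, or 0.127%. The number of peaks per 100000 bp followed the same order, from 5.58 in Hoxa over 1.55 in Hoxb and 1.47 in Hoxc to 0.855 in Hoxd. With 1 list and 4 clusters these differences have no test, and Hoxb and Hoxc are close.

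**Figure D1:**
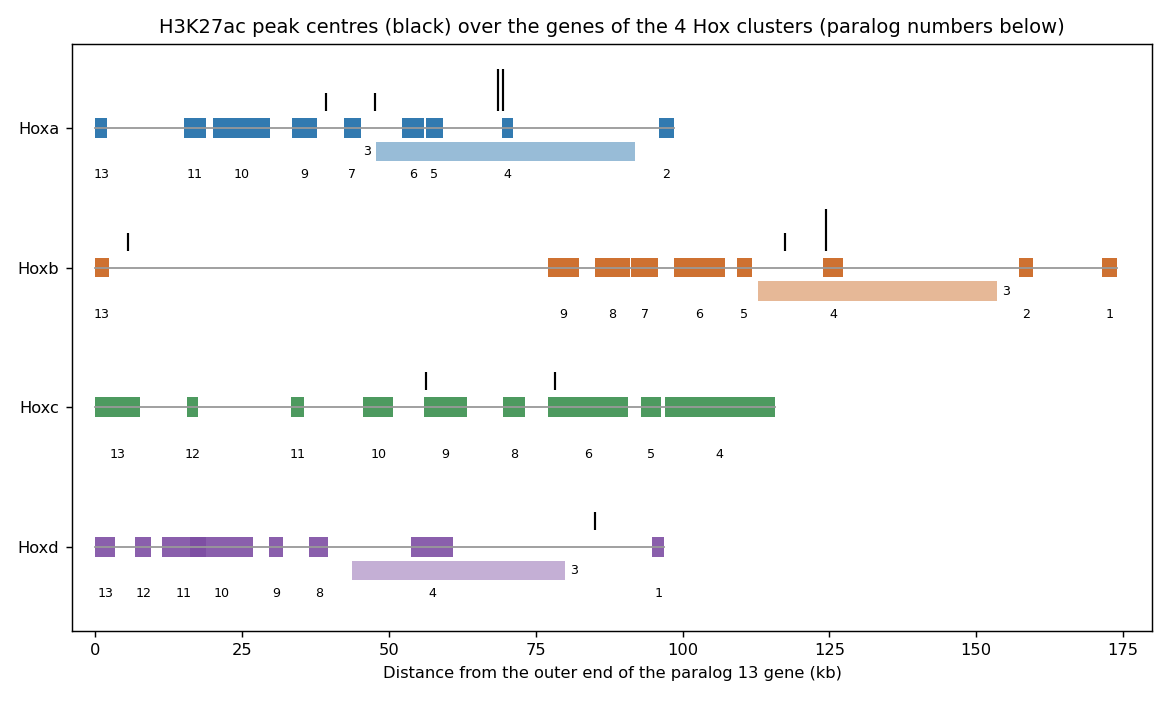
Map of the 4 Hox clusters, drawn from the paralog 13 gene on the left, with distance in kb from its outer end. Boxes are annotated genes (the long paralog 3 genes are set lower, in pale colour) and black ticks are peak centres, tall for peaks of at least 500 bp. The map shows the genes and peaks that the text describes one by one, with 1 peak in Hoxd, 2 in Hoxc and 3 in Hoxb.

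Of the 39 members, 19 had a peak within the gene or 10000 bp on each side, against 66.8% of all protein-coding genes. These were 9 of 11 in Hoxa, 4 of 10 in Hoxb, 4 of 9 in Hoxc and 2 of 9 in Hoxd. Only in Hoxa was the share (81.8%) above that of all genes. A peak overlapped the gene itself in 7 of 39 members, against 59.7%: 3 in Hoxa, 2 in Hoxb, 2 in Hoxc and 0 in Hoxd. A peak lay within 1000 bp of an annotated gene end, which may be the start or the finish, in 5 of 39 members, against 53.8%.

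Hox genes are short, with a median length of 3737 bp against 17329 bp over all genes, and short genes have fewer peaks. Among members of at most 5000 bp, 12 of 24 had a peak in the 10000 bp window, against 40.0% of all protein-coding genes of that length, a background chosen after the data were seen. For peaks on the gene itself the counts were 3 of 24 against 29.5%, and at gene ends 3 of 24 against 31.0%. By the window the short members were thus no lower than other short genes, while by the gene and its ends they were. Members are close neighbours and share peaks: the 13 peaks gave the counts of 19 members, and 1 peak upstream of Hoxa3 lay in the windows of 5.

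The median acetylated length, meaning the bp under peaks in the gene with its 10000 bp flanks, was 0 bp over the members against 1693 bp over all genes. The highest value was 2800 bp at Hoxa3. Hoxa2, with 2058 bp, was also above the median of all genes. By cluster the median was 576 bp in Hoxa and 0 bp in Hoxb, Hoxc and Hoxd.

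**Figure D2:**
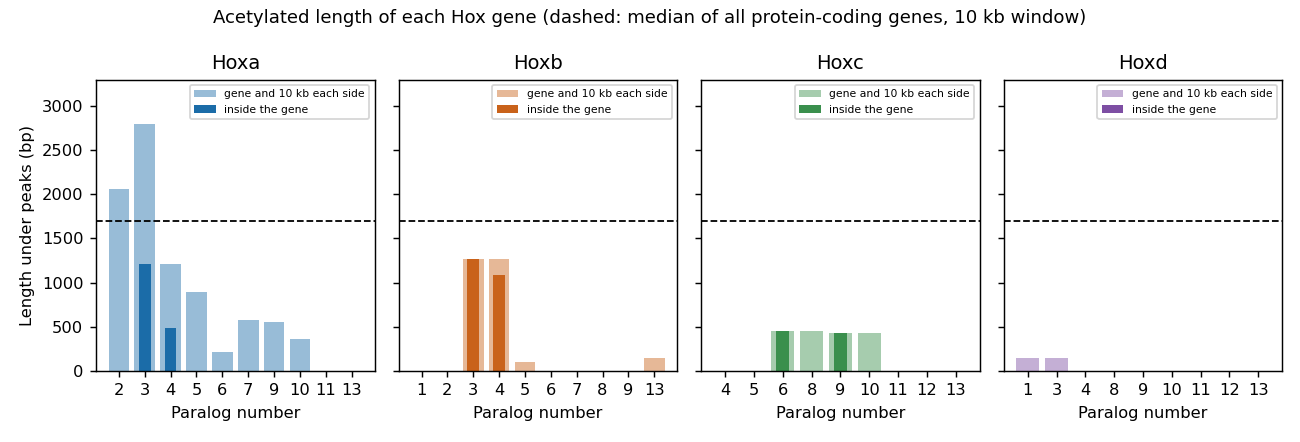
Length under peaks (bp) for each member by paralog number, in the gene with 10000 bp on each side (pale bars) and inside the gene (dark bars). The dashed line is the median of all protein-coding genes, 1693 bp, which Hoxa2 and Hoxa3 exceed.

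The RefSeq promoter table (GRCm38.p6) has entries for 22 of the 39 members, and a peak reached the promoters of 2 of these, Hoxa3 and Hoxb4. They are printed because they show how much of the sequence before a Hox start lay under a listed peak. The 250 bases before each start are given from 5′ to 3′ on the strand of the gene. Bases under a peak are in capitals. Hoxa3 is on the minus strand (chr6:52213068-52213317) and Hoxb4 on the plus strand (chr11:96318017-96318266).
Hoxa3: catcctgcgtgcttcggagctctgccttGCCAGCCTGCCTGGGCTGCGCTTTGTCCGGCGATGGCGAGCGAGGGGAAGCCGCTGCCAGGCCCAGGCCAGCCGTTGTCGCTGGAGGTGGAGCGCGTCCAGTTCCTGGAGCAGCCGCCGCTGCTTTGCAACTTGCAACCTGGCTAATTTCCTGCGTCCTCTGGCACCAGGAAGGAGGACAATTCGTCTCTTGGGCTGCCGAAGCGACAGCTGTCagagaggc
Hoxb4: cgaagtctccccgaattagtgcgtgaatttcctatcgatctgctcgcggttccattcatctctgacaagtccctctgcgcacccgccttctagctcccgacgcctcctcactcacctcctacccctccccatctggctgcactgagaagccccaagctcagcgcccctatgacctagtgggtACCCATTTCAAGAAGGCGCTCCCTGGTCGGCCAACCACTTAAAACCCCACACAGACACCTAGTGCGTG
At Hoxa3 the whole peak of 214 bp lay within these bases and stopped 8 bp short of the start. At Hoxb4 the last 68 bases before the start lay under the peak, which ran on into the gene.

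In Hoxa, peaks lay in the windows of 9 of 11 members, up to Hoxa10. Hoxa2, a regulator of hindbrain patterning, had no peak on it. The nearest lay 1623 bp away, and 2058 bp in its window were covered.

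A pair of peaks lay at Hoxa4 (chr6:52189682-52191703), one of 534 bp (chr6:52191221-52191754) over its upper end and one of 682 bp (chr6:52191893-52192574) 189 bp beyond it. Inside Hoxa4 483 bp were covered. Both peaks also lay in the annotated span of Hoxa3 (chr6:52169059-52213067, 44009 bp), which runs across Hoxa4, Hoxa5 and Hoxa6. The 1216 bp of peak inside Hoxa3, a gene needed for thymus and parathyroid development, are the bp of these 2 peaks. At its own start Hoxa3 had the 214 bp peak printed above (chr6:52213076-52213289), which overlapped the noncoding gene Hoxaas3.

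The last peak, 362 bp wide (chr6:52221430-52221791), lay between Hoxa7 and Hoxa9 and overlapped no annotated gene. It was 1305 bp from Hoxa9, a driver of progenitor growth and of leukaemia, and 2856 bp from Hoxa7. Hoxa9 had 555 bp in its window and Hoxa7 576 bp, with 0 bp inside either gene. Hoxa5, Hoxa6 and Hoxa10 likewise had flanking peaks only (897, 214 and 362 bp in the window). Hoxa11 and Hoxa13, which pattern the uterus and limbs, were 20313 and 37061 bp from a peak. No peak lay beyond Hoxa9, toward the posterior end of the cluster.

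In Hoxb the widest of the 13 peaks covered the start of Hoxb4, a factor known for expanding haematopoietic stem cells (chr11:96318267-96321638). The peak was 1159 bp wide (chr11:96318199-96319357), and 1091 bp of it lay inside Hoxb4. The annotated span of Hoxb3 (chr11:96307101-96347930, 40830 bp) contains Hoxb4, so that this peak and one of 103 bp (chr11:96311779-96311881) gave Hoxb3 1262 bp without a peak at either of its ends. The remaining Hoxb peak, of 146 bp (chr11:96199806-96199951), lay in the noncoding gene Gm30134, 3195 bp from Hoxb13, a prostate regulator that stands apart from the rest of the cluster. Hoxb5 was 5657 bp from a peak. Hoxb6 missed the window at 10209 bp, and Hoxb7, Hoxb8, Hoxb9, Hoxb2 and Hoxb1 were 21615 to 46388 bp away.

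In Hoxc the 2 peaks lay in Hoxc9 and Hoxc6, genes of the thoracic and lower cervical level. The Hoxc9 peak was 427 bp wide (chr15:102977189-102977615) and lay at the lower annotated end of the gene (chr15:102977032-102984444). The Hoxc6 peak was 456 bp wide (chr15:102999227-102999682) and lay inside the gene (chr15:102998226-103011882), farther than 1000 bp from either end. Hoxc8 and Hoxc10 were within 10000 bp of these peaks (4951 and 5290 bp). Hoxc4, Hoxc5, Hoxc11, Hoxc12 and Hoxc13 were 14325 to 48374 bp away.

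In Hoxd a single peak of 149 bp (chr2:74753259-74753407) lay in the noncoding genes Haglr and Gm14424, 4987 bp from Hoxd3 and 9572 bp from Hoxd1. No peak overlapped any of the 9 Hoxd genes. The other 7, from Hoxd4 to Hoxd13, were 24098 to 81655 bp from a peak. The 3 members farthest from any peak were Hoxd13 (81655 bp), Hoxd12 (75553 bp) and Hoxd11 (66242 bp), which shape the limbs and digits. The stretch without a peak that held Hoxd3 to Hoxd13, 8 genes in all, was 173677 bp long.

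Other long stretches without a peak ran through the clusters. One of 111827 bp held Hoxb5 to Hoxb9, and one of 229753 bp held Hoxc10 to Hoxc13 and reached beyond the cluster. The median distance between consecutive peaks in the list was 3595 bp. Stretches at least as long as the Hoxc one were 2.87% of those between consecutive peaks but held 62.6% of all bp between peaks, so such stretches are common in the genome by length.

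By position in the cluster, a peak lay in the window of 6 of 8 anterior members (paralogs 1 to 3), 8 of 15 central members (4 to 8) and 5 of 16 posterior members (9 to 13), where the share over all genes is 66.8%. The anterior members were near that share and the posterior ones below it. Median gene lengths were close, at 3575 bp for anterior, 3737 bp for central and 3990 bp for posterior members. The share over all protein-coding genes of at most 5000 bp is 40.0%, and each of these medians is below that length. The anterior group also holds the paralog 3 genes of 36279 to 44009 bp, whose windows are wider, and all 3 had a peak in the window. The gene itself was overlapped in 3 anterior, 3 central and 1 posterior member, against 59.7% of all genes. For Hoxa3 and Hoxb3 the overlapping peaks lay at or near Hoxa4 and Hoxb4 inside their long spans. The median distance to a peak was 3305 bp for anterior, 8488 bp for central and 36122 bp for posterior members. The order did not hold within each cluster. In Hoxb, Hoxb1 and Hoxb2 were 46388 and 32274 bp from a peak and Hoxb13 3195 bp. In Hoxc, which has no anterior member, Hoxc9 (0 bp) and Hoxc10 (5290 bp) were nearer to a peak than Hoxc4 and Hoxc5 (18414 and 14325 bp). In Hoxa, Hoxa9 (1305 bp) was nearer than Hoxa2 (1623 bp) or Hoxa5 (8488 bp). In paralog groups 11 and 12 none of 5 members had a peak in the window. In paralog group 4 the copies differed: Hoxa4 and Hoxb4 had a peak at a gene end, while Hoxc4 and Hoxd4 had none in the window.

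**Figure D3:**
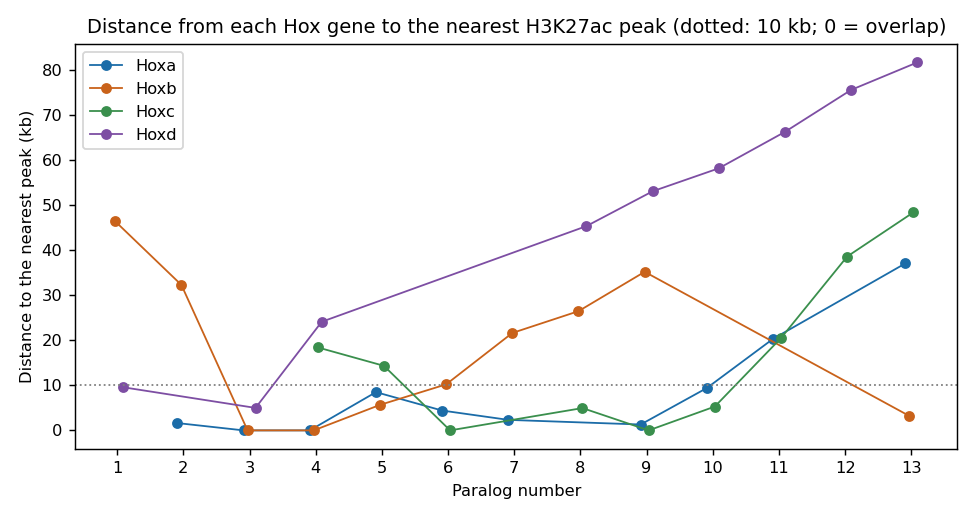
Distance in kb from each member to the nearest peak, by paralog number, 1 line per cluster, with 0 for a peak that overlaps the gene. The Hoxd genes run from 4987 bp at Hoxd3 to 81655 bp at Hoxd13, whereas Hoxa2 to Hoxa10 stay within 10 kb.

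The Hox promoters were no poorer in CG than other promoters, yet mostly without a peak. The table held 24 promoters of 300 bp (250 bp before to 50 bp after the start) for 22 members. Their median number of CG dinucleotides was 14.5 (range 4 to 45) against 13 over 21045 promoters of protein-coding genes, and their median GC content 57.7% against 56.7%. A peak overlapped 2 of the 24 (8.33%) against 51.4% of all promoters. Among promoters with at least 14.5 CG, a peak overlapped 1 of 12 Hox promoters, that of Hoxa3, against 82.3% of 9954 promoters. The Hoxa13 promoter had 45 CG and that of Hoxd13 had 37, and neither had a peak. The Hoxb4 promoter, which had one, had 14.

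**Figure D4:**
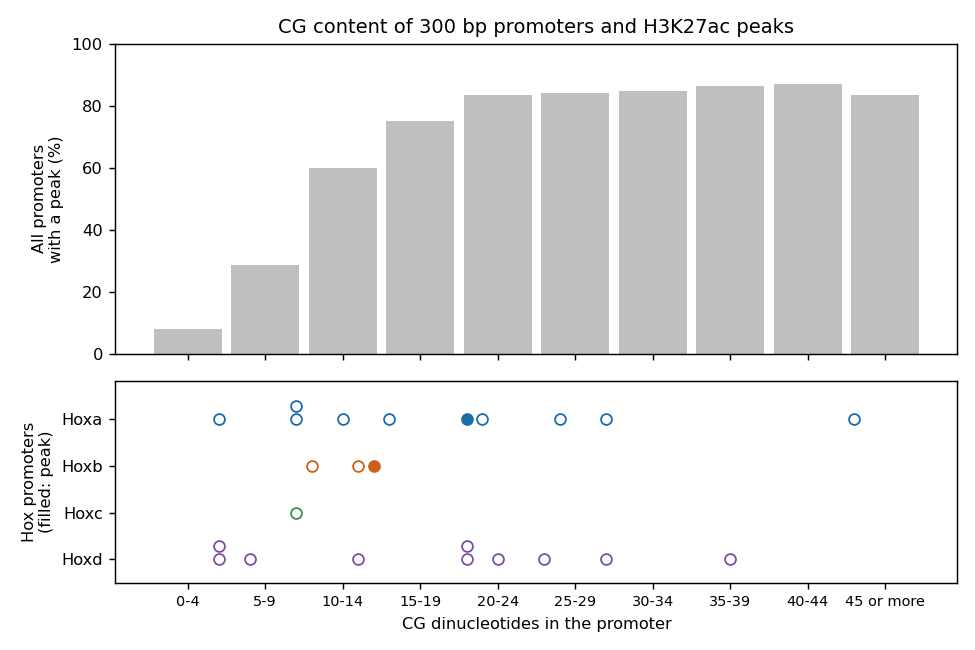
Top: share of all promoters with a peak (%) by the number of CG dinucleotides in 300 bp. Bottom: each Hox promoter at its CG number, filled where a peak overlaps it; in the bins from 20 CG upward 83.5% to 87.2% of all promoters had a peak, and of the Hox promoters there that of Hoxa3 (20 CG) did.

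Short motifs were searched on both strands of the same 300 bp. TGATTNAT, the composite site of a Hox protein with a TALE partner, was in 2 of 24 Hox promoters (Hoxa2 and 1 of the 2 of Hoxd11), against 2.78% of all promoters. CCAAT was in 15 of 24, against 38.5%. TATAAA was in 4 of 24, against 12.7%, and CCATNTT, the core of the YY1 site, in 2 of 24, against 15.1%. Neither of the 2 promoters with a peak held any of the 4. These matches describe the letters only.

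The clusters also hold microRNA genes, and a peak overlapped 0 of these 6, against 11.8% of all microRNA genes. The sequences of 4 mature miRNAs from RefSeq (GRCm38.p6) are shown because they fall into 2 families by their seed, bases 2 to 8, in capitals.
miR-10a-5p: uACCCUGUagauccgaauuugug
miR-10b-5p: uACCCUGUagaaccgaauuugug
miR-196a-5p: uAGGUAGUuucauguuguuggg
miR-196b-5p: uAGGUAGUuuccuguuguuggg
Mir10a, next to Hoxb4, lay 924 bp from the Hoxb4 peak, whereas Mir10b, with the same seed, lay in Hoxd 27121 bp from a peak. Of the miR-196 genes, Mir196a-2 in Hoxc was 3754 bp, Mir196b in Hoxa 8289 bp and Mir196a-1 in Hoxb 46513 bp from a peak. Mir615 in Hoxc was 15227 bp away. Of 32 noncoding genes and pseudogenes between the outer Hox genes, 7 were overlapped by a peak, against 16.6% of all lncRNA, miRNA and pseudogene genes. In Hoxa there were 4, including Hoxaas3 and LOC115490409. The others were Gm30134 in Hoxb, and Haglr and Gm14424 in Hoxd. Hotair, the Hoxc noncoding RNA, was 29242 bp from a peak.

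Peaks at a gene end were found for 11 of 16 listed genes around the clusters and for 5 of the 39 members, against 53.8% of all protein-coding genes. Many of the 16 lie more than 100000 bp from the outer Hox genes. Within that distance, Skap1, Lnpk and Mtx2 had a peak at a gene end, and Calcoco2, Ttll6, Evx1 and Evx2 did not. Several of these neighbours are much longer than Hox genes. Skap1, an adaptor of T cell receptor signalling that begins 96315 bp beyond Hoxb1, had 11906 bp in its window and a peak at its end. Between Hoxb1 and the nearest peak on that side lay 66426 bp. Skap2, on the anterior side of Hoxa, had 1755 bp, and the Hoxd neighbours Lnpk and Mtx2 had 1267 and 1057 bp, each with a peak at a gene end. The homeobox genes at the posterior ends, Evx1 and Evx2, had 0 bp inside the gene, with 665 bp in the window of Evx1 and 0 bp in that of Evx2.

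Genes for the proteins that regulate Hox clusters were marked. Peaks at a gene end were found in 12 of 12 genes of Polycomb repressive complex 2, where the share over all protein-coding genes is 53.8%, with a median of 3555.5 bp in the 10000 bp window. Aebp2 (26909 bp), Jarid2 (23972 bp) and the methyltransferase gene Ezh2 (16286 bp) had the longest acetylated length, and Ezh1 (2420 bp), Mtf2 (1899 bp) and Epop (1733 bp) the shortest. Of 20 genes of Polycomb repressive complex 1, 19 had a peak at a gene end, led by Pcgf5 (21508 bp), and Cbx7 did not. On the list of 17 Trithorax, demethylase and other activator genes, 15 had a peak at a gene end, led by Dot1l (16991 bp) and Setd1b (16604 bp). Kmt2a, whose product maintains Hox expression in progenitors, had 7128 bp. Dpy30 and Ash2l had peaks inside the gene and none at an end. These genes are longer than Hox genes, so the window values are not set against each other.

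The TALE homeodomain genes include the Hox partners of the Pbx and Meis families. Peaks at a gene end were found for 8 of 11, where the share over all genes is 53.8%. Tgif1 (10701 bp), Pbx2 (10660 bp) and Tgif2 (8296 bp) had the longest acetylated length, and the Tgif proteins are known as repressors in TGF-β signalling rather than as Hox partners. Meis1, a partner of Hox proteins in progenitors, had no peak within 10000 bp, and the nearest lay 809926 bp away. Of 15 upstream, ParaHox and related homeobox genes, among them the Cdx genes that switch on Hox clusters in the embryo, 0 had a peak at a gene end and 3 had one in the window (Gsx2, Cdx2 and Evx1), where the share over all genes is 66.8%.

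**Figure D5:**
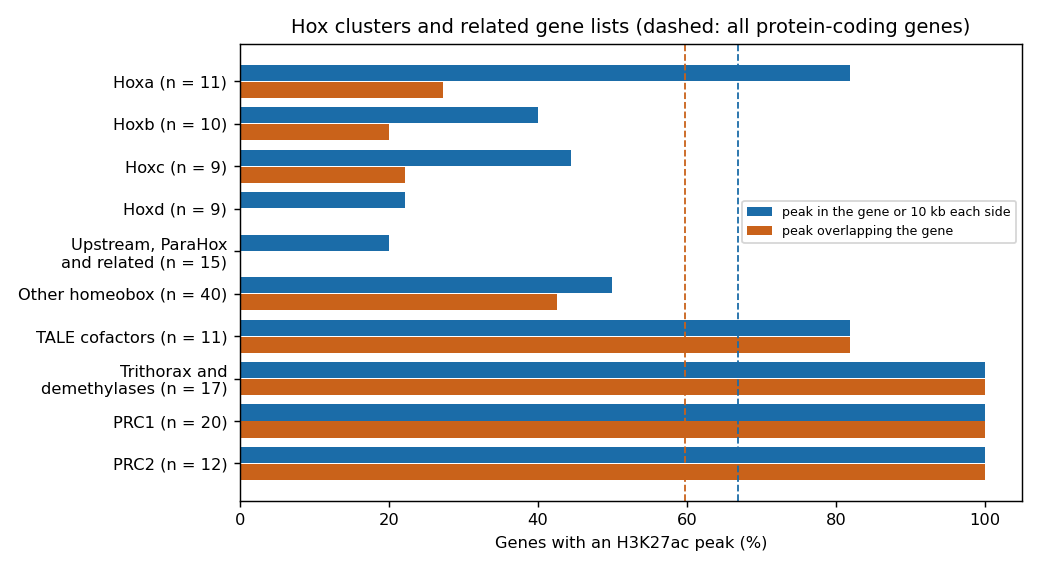
Share of genes (%) with a peak in the gene or 10000 bp on each side (blue) or overlapping the gene (orange), for the 4 Hox clusters and related lists, with n genes in brackets. Dashed lines are all protein-coding genes (66.8% and 59.7%); the Polycomb and Trithorax lists are at 100%, and Hoxd and the upstream list at 0% for peaks on the gene. Gene lengths differ between the lists and were not allowed for.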

How the data were processed

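H3K27ac and input DNA of 2 biological replicates were sequenced. Bowtie2 2.3.4.1, SAMtools 1.9, MACS2 2.2.6, deepTools and the build GRCm38 (mm10) are named in the submitters' processing notes, and the design text says that each replicate's input served the peak call. No threshold, filter or pooling of replicates is given in the labels or the file. The deposited list holds, in place of scores or counts, the start and end of each peak in bp. Starts were read as counted from 0 and are printed counted from 1. Of 56285 peaks, 56284 on chromosomes 1 to 19 and X were used. Narrow or weak peaks depend most on depth and threshold, which are unknown here.

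Genes came from the RefSeq table of GRCm38.p6, which gives gene ends without strand or exons, so exon, intron and UTR positions are not given. Strand and starts came from the RefSeq promoter table, in which 710 of 710 overlapping promoter pairs on opposite strands agree when 1 is reverse complemented. Overlap was at least 1 bp, gene ends were read within 1000 bp, and distances run from the gene to the nearest peak edge. The interval code recovered 200 of 200 simulated peaks. Members and lists were chosen with earlier results of these data known. Full values are given for members that a peak overlaps or touches at an end and for the 3 farthest from a peak, and for other lists the up to 3 longest and shortest members. Skap1 and the other neighbours come from a list of genes around the clusters, many of them more than 100000 bp from the outer Hox genes. Some genes that these rules name, 1 of them a member, are not reported here one by one and stay in the counts. Cbx7, Dpy30, Ash2l and Kmt2a were named after their values were seen. No test was made, since 1 list gives no replicates and neighbouring members share peaks. Python 3.11.15, numpy 2.4.6, pandas 2.3.3 and matplotlib 3.10.9 were used.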

Additional observations from a re-analysis of the deposited data

How the results depend on the processing

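No paired analysis was possible because the list holds no value per library, and for the same reason leaving out a replicate and a stricter score threshold were not run. Of 120 alternative values, 91 stayed within 1.5 times the reported one. Some of these could not have moved. All 13 peaks lay between the outer genes, so a narrower flank or none could not change the number of peaks or the bp under them. The order of the clusters by covered share was the same with each flank, where only the length of the windows changed.

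Narrow peaks matter most. With peaks of at least 500 bp, 5 of the 13 peaks were left, 4 in Hoxa, 1 in Hoxb, 0 in Hoxc and 0 in Hoxd, and they covered 4041 bp (0.706% of the windows), with 0 bp (0%) in Hoxc and Hoxd. Members with a peak in the window were then 7: 5 in Hoxa, 2 in Hoxb, 0 in Hoxc and 0 in Hoxd. Chosen after the data were seen, the same limit left 3 members with a peak at a gene end, and in Hoxc 0 with a peak at an end or on the gene. Without flanks 7 members had a peak, 3 in Hoxa, 2 in Hoxb, 2 in Hoxc and 0 in Hoxd, and with 5000 bp flanks Hoxd had 1. A gene-end window of 2500 bp gave 9 members, 6 in Hoxa and 2 in Hoxc. Merging peaks at most 1000 bp apart left 4 in Hoxa.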

Other observations

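Homeobox genes outside the Hox clusters varied widely. Of 40 on the list, 20 had a peak in the gene or 10000 bp on each side and 16 at a gene end, against 66.8% and 53.8% of all protein-coding genes. Satb1, a chromatin organiser of T cells, had 54021 bp in 49 peaks, Cux1 18331 bp and Zeb1 9795 bp, while the remaining 20, among them Dlx5, Irx1, Msx1, Nkx2-1 and Tlx3, had no peak in the window. The examples without a peak were chosen after their values were seen. They are 2837 to 5492 bp long, whereas Satb1, Cux1 and Zeb1 are 97104 to 319456 bp long, and gene length was not allowed for.

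The peak names carry running numbers up to 71449, of which 56285 are in the list used here, so 15164 (21.2%) are not in it. Between the nearest listed peaks outside each cluster window the numbers not listed were 0 in Hoxa, 3 in Hoxb, 0 in Hoxc and 2 in Hoxd. The 3 of Hoxb fall between the peak at Gm30134 and the 103 bp peak in Hoxb3, and the 2 of Hoxd before the single Hoxd peak. The labels and the file do not say what the missing numbers stood for.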
